A study of Mus musculus with 281 samples.

Results

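The 9 genes described here belong to thyroid hormone signalling: the receptors Thra and Thrb, the deiodinases Dio2 and Dio3, the transporter Slc16a10, the hormone-binding protein Crym, and Thrsp, Klf9 and Hr, which are known hormone targets. They were chosen by name, and all 9 were found among the 47752 genes of the expression table. Earlier results of these data, in which Thrsp was low in mutant intermediate cells, were known when they were chosen, so that the levels of Thrsp by genotype are a description. Levels are given in CPM, the counts of a gene scaled to a common total per cell. Of the 9, 5 averaged at least 10 CPM between both genotypes in the comparison of mutant with wild-type intermediate cells, and 7 did so in pendrin cells.

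Single cells were picked by micropipette from the stria vascularis, the epithelium in the cochlear wall that makes the endocochlear potential, and their full-length cDNA was sequenced (Smart-Seq2, with no molecular identifiers). All mice were male, on the 129S6 strain. The cells came from Slc26a4+/+ mice (WT; all the other cells) aged P22 to P42 (postnatal days), from Slc26a4+/- mice (HET; 40 cells) aged P26 to P33, and from mice labelled Slc26a4-/- (KO; 69 cells) aged P24 to P44. Slc26a4 encodes pendrin, an anion exchanger of the inner ear and the thyroid. Beside age, the state of this gene in every cell of the body (intact, heterozygous or inactivated) is the only difference that the labels give between the groups. No label names the mouse a cell came from. Each genotype was therefore 1 sample, no difference between genotypes was tested, and the spread is given over collection sessions (cells that share a run date, a collection number and an age). A cell held between 1848 and 7932729 estimated counts, with a median of 1312950.

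Cells were grouped by clustering and named from marker genes. Intermediate cell (IMC)-like cells numbered 60 in WT, 23 in HET and 35 in KO mice. Spindle cell (SC)-like and root cell (RC)-like cells are together called pendrin cells, and numbered 39, 8 and 22 in the same order. Marginal cell (MC)-like cells numbered 14, 2 and 5. The remaining cells, in clusters of 56 and of 17, were not named. In IMC-like cells the 10 markers of intermediate cells summed to a mean of 49732 CPM in WT, 83218 CPM in HET and 73625 CPM in KO cells, with Tyrp1 at 0 in all WT and Pmel at 0 in all HET cells of this kind. The 8 markers of marginal cells summed to 471, 138.5 and 189.5 CPM in these cells, and the part of either difference in the results was not tested. RNA of Slc26a4 did not separate the labels in pendrin cells pooled over both types or in IMC-like cells. Its mean in pendrin cells was 969 CPM in WT, 554 CPM in HET and 793 CPM in KO mice. In IMC-like cells it was 0.920, 1.82 and 2.20 CPM. Within SC-like cells the mean was 912 CPM in 23 WT, 511 CPM in 2 HET and 102.5 CPM in 8 KO cells. Medians there were 692 CPM in WT and 12.3 CPM in KO cells. The KO sessions of SC-like cells (99.04 to 108.4 CPM) lay inside the range of the WT sessions (0 to 2971 CPM). Within RC-like cells the mean was 1050, 568 and 1188 CPM. The deposited values do not show whether these reads come from the inactivated part of the gene.

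Thyroid hormone enters cells through transporters, is activated by the deiodinase Dio2 or inactivated by Dio3, and binds nuclear receptors encoded by Thra and Thrb, which repress target genes without hormone and activate them with it. In the cochlea the hormone is known for its part in development before the onset of hearing, and loss of Thrb causes deafness. Thrsp encodes Spot 14, a small nuclear protein tied to fatty acid synthesis in liver, fat and mammary gland.

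The sequences below carry the findings on receptor forms and on the 3 members that were highest in IMC-like cells among the named types. Thra is on chromosome 11 (GRCm38, 98740638 to 98769006, plus strand), and its transcripts Thra-202 and Thra-201 share the first 370 codons. They then part at an exon junction, into TRα1 (410 amino acids), which binds the hormone, and TRα2 (492 amino acids), which does not. The last 30 shared coding bases are in lower case and the first 30 bases particular to each transcript are in capitals.
Thra-202, chr11:98764376-98764435: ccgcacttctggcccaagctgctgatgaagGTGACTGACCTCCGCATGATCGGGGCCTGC
Thra-201, with its own bases at chr11:98768157-98768186: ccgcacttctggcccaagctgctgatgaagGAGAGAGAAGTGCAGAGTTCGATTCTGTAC
The bases just upstream of the outermost annotated start of Thrsp, Slc16a10 and Klf9 are shown because, among the named types, these genes were highest in IMC-like cells. They are from RefSeq on GRCm38.p6, and the stretch of Thrsp is short because its annotated start lies upstream of the RefSeq start.
Thrsp, chr7:97417731-97417800, minus strand: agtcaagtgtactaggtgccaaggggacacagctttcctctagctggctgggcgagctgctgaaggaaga
Slc16a10, chr10:40142259-40142504, minus strand: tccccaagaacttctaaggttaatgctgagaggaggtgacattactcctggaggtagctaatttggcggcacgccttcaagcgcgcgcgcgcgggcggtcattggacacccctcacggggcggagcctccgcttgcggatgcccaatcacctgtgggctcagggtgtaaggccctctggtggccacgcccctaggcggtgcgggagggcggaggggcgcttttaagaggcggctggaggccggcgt
Klf9, chr19:23140976-23141225, plus strand: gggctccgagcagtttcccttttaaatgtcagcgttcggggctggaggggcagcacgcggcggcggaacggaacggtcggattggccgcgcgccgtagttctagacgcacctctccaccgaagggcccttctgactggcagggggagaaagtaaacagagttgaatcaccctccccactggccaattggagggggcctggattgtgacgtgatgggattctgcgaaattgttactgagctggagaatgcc
The receptor half-site AGGTCA, the E-box CACGTG and the M-box core CATGTG were searched on both strands in windows of 300 bases around RefSeq starts. They were in 16.3%, 7.15% and 14.2% of the 32851 windows of the genome, and in none of the windows of Thrsp, Slc16a10 and Klf9, so no base is in capitals. A window without these letters says nothing of binding elsewhere.

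Among the named cell types in WT mice, 3 members (Thrsp, Klf9 and Slc16a10) had their highest level in IMC-like cells, and the receptors had theirs in RC-like cells. The mean of Thrsp was 849 CPM in IMC-like cells, 98.1 CPM in RC-like cells, 40.4 in the MC-like and 31.01 in the SC-like cells. Its mean over the 20 sessions of IMC-like cells was 970 ± 607 CPM (SD) and over the 11 sessions of RC-like cells 66.6 ± 127.7. This step was the only one between neighbours in the order of any member that was larger than the greater SD of sessions, and even here the lowest and highest sessions overlapped. Per length of transcript, Thrsp averaged 1103 TPM in IMC-like cells and ranked 72 of the 16837 genes with a TPM above 0 there. Its annotated coding transcript, Thrsp-201, made up 96.8% of that level. At least 1 estimated count was found in 96.7% of IMC-like cells (95% exact binomial interval 88.5 to 99.6%) and in 73.9% of SC-like cells, where most values were a few counts. The intervals cover counting error only.

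Klf9, a zinc finger transcription factor that thyroid hormone and glucocorticoids induce, averaged 340 CPM in IMC-like, 170 in MC-like, 148.95 in RC-like and 65.3 CPM in SC-like cells. Slc16a10, a transporter of aromatic amino acids and thyroid hormones, averaged 190.7 CPM in IMC-like and 69.2 in RC-like cells, against 0.836 CPM in SC-like and 0.812 in MC-like cells. For Klf9 and Slc16a10 no step in this order was larger than the spread of sessions. On the TPM scale, which allows a comparison between genes, the IMC-like order was Thrsp (1103), Klf9 (153.2), Slc16a10 (49.7), Thra (29.5), Hr (3.05) and Thrb (1.74).

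Thra averaged 95.9 CPM in RC-like, 90.99 in SC-like, 33.05 in IMC-like and 26.02 CPM in MC-like cells. Thrb averaged 149.4 CPM in RC-like, 29.8 in MC-like, 5.75 in IMC-like and 1.95 CPM in SC-like cells, and had a count in 81.2% of RC-like and 26.7% of IMC-like cells. The levels of Thrb in RC-like and MC-like cells rested on few sessions (SD over sessions 283.4 and 122.5 CPM). Hr, a nuclear corepressor that binds the receptors and is itself a hormone target in brain, averaged 25.03 CPM in RC-like and 11.6 in IMC-like cells, with 0.0716 CPM in MC-like and 0.0413 in SC-like cells. For the receptors and Hr, neighbours in the order did not differ beyond the spread of sessions.

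The remaining members were at or near 0. Dio3 had no count in any cell of the series, and a floor of 3 counts over all cells is 0.00673 CPM, or 1.07% of cells. Dio2 had a count in 5 cells, with at least 10 counts in 3 of them, and Crym, which binds triiodothyronine in the cytosol, had a count in 2 cells. Neither Dio2 nor Crym had a count in IMC-like cells of any genotype, a floor of 0.0326 CPM in WT, 0.0492 in HET and 0.0448 in KO cells. These floors treat counts as independent draws and do not cover RNA molecules lost before amplification, so they overstate the sensitivity. The 2 pendrin cells with more than a few counts of Dio2 were an SC-like cell at 174.6 CPM and an RC-like cell at 363.5 CPM. Both were labelled KO and both came from 1 session at P29 of run date 2.

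**Figure D1:**
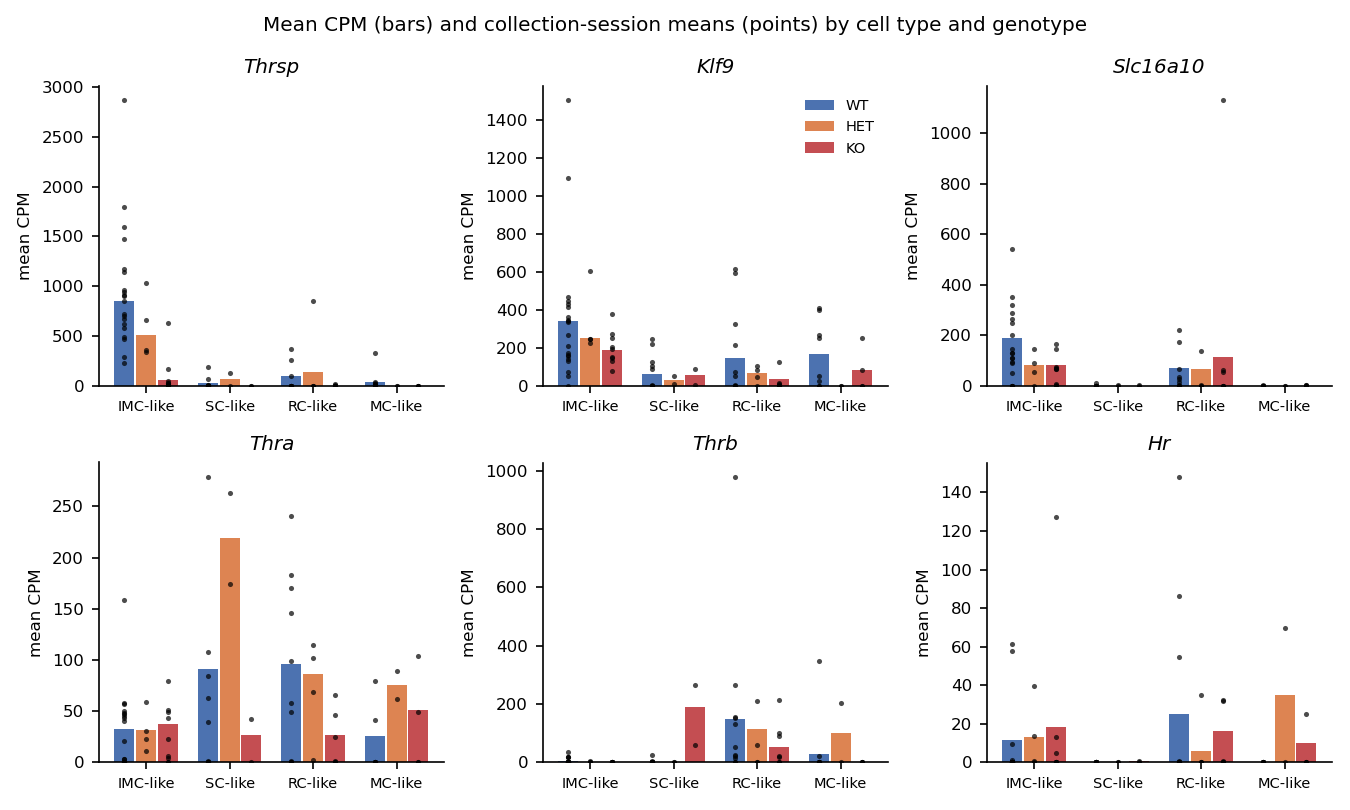
Mean CPM per cell (bars) of 6 members in IMC-like, SC-like, RC-like and MC-like cells of each genotype, with the means of collection sessions as points. Thrsp, Klf9 and Slc16a10 stand highest in IMC-like WT cells (849, 340 and 190.7 CPM), Thrb is at 149.4 CPM in RC-like WT cells and at 189.1 CPM in SC-like KO cells, and the single-session points show how few cells carry some bars.

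The comparison of genotypes in IMC-like cells asks which genes differ where pendrin is lost, in a cell type that has little Slc26a4 RNA of its own. Thrsp was the member with the largest difference and Slc16a10 the only other past a 2-fold difference in KO cells, while Klf9 was lower by less than 2-fold and Thra and Hr were not past 2-fold. A gene was counted as lower or higher where mean CPM + 1 differed at least 2-fold among genes whose 2 group means averaged at least 10 CPM. A gene under 10 CPM in either group passes this limit only through the other group, which fixes the direction of its ratio. By this rule of size 2 of 5 members were lower and 0 higher in KO cells, where 15.7% of the 8906 genes examined were lower and 10.2% higher. The median log2 ratio was -0.84 over the 5 members and -0.12 over all genes examined. Because Thrsp chose the members, nothing is read from this count.

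Thrsp averaged 849 CPM in 60 WT cells, 512 CPM in 23 HET cells and 63.8 CPM in 35 KO cells. The medians over cells were 662, 399 and 1.11 CPM. Session means in WT cells ran from 226.98 to 2866 CPM with a median of 879. The 4 sessions of HET cells were at 338, 357, 662 and 1029.3 CPM. The 9 sessions of KO cells were at 0, 0.982, 8.77, 22.4, 31.2, 33.1, 46.2, 167.4 and 632 CPM. Only the last of these, a single cell at P29 of run date 2, reached into the range of the WT sessions, and the other 8 were below all of them.

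The log2 ratio of Thrsp was -3.71 (13.1-fold lower in KO than in WT cells), and it stayed between -4.16 and -3.51 when any single session was left out. A level of at least 100 CPM was found in 56 of 60 WT, 19 of 23 HET and 6 of 35 KO cells. At least 1 count was found in 96.7%, 91.3% and 77.1% of cells, and after each cell was thinned at random to 100000 counts in 96.7%, 82.6% and 37.1%. In the order of mean TPM, Thrsp ranked 72 in WT and 2046 in KO cells.

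Most WT cells came from run dates without KO cells, so the values were also taken within run dates. Within run date 2, Thrsp averaged 866 CPM in 12 WT cells and 48.7 in 23 KO cells (log2 ratio -4.13), with sessions that overlapped through the single cell at 632 CPM. Within run date 4 it averaged 837 CPM in 7 WT cells and 92.9 in 12 KO cells (log2 ratio -3.16), and the sessions, at 697 to 1143 and 0 to 167.4 CPM, did not overlap. The 23 HET cells of run date 4 averaged 512 CPM, so that the log2 ratio of KO to HET cells was -2.45, again without overlap of sessions.

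IMC-like cells fell into a cluster of 77 and a cluster of 41, and the order of genotypes was alike in both. In the larger cluster Thrsp averaged 890 CPM in WT, 518 in HET and 67.1 in KO cells. In the smaller cluster it averaged 737, 507.8 and 57.5 CPM.

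**Figure D2:**
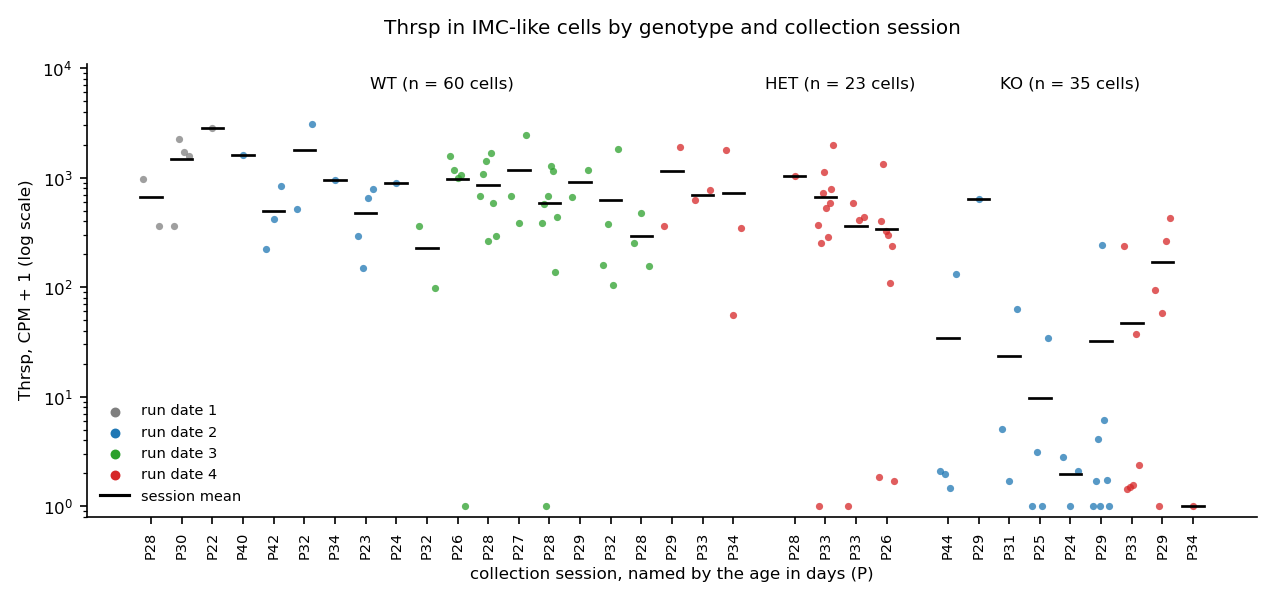
Thrsp in each IMC-like cell (points, CPM + 1 on a log scale) by genotype and collection session, named by age and coloured by run date, with session means as lines. Session means of KO cells lie at 0 to 167.4 CPM except a single P29 cell at 632 CPM, and those of WT cells at 226.98 to 2866 CPM.

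Slc16a10 averaged 190.7 CPM in WT, 81.4 in HET and 82.95 CPM in KO IMC-like cells, and the log2 ratio of KO to WT cells was -1.19. Sessions ran from 0 to 544 CPM in WT and from 0.613 to 166.8 CPM in KO cells and overlapped widely. The ratio was -0.58 within run date 2, where sessions overlapped, and -0.99 within run date 4, where the KO sessions (67.02 to 76.1 CPM) were below the WT sessions (89.06 to 202.6 CPM), under 2-fold in each. It was also -0.99 without the WT session at P30 of run date 1, in which 4 cells averaged 544 CPM.

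Klf9 averaged 340 CPM in WT, 254.6 in HET and 189.8 CPM in KO IMC-like cells (log2 ratio of KO to WT -0.84, under 2-fold). All 35 KO cells and 55 of 60 WT cells had a count. Within run date 4 the KO sessions, at 78.1 to 146.4 CPM, were below the WT sessions at 165.2 to 344 CPM, while within run date 2 sessions overlapped (log2 ratio -0.53). With size-factor scaling the log2 ratio was -0.22. Relative to the median of all genes it was -0.72 with CPM and 0.19 with size factors, so its direction relative to other genes depends on the scaling.

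Thra averaged 33.05 CPM in WT, 31.4 in HET and 37.8 CPM in KO IMC-like cells, and its sessions overlapped over most of their range. Thrb averaged 5.75, 1.67 and 0.334 CPM and was under the limit of 10 CPM. Hr averaged 11.6, 13.1 and 18.3 CPM, but had a count in only 6, 5 and 4 cells, and its highest KO session (127.2 CPM) held a single cell at 509 CPM. With any single session left out, the log2 ratio of Hr in KO cells ran from -1.27 to 1.68.

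**Figure D3:**
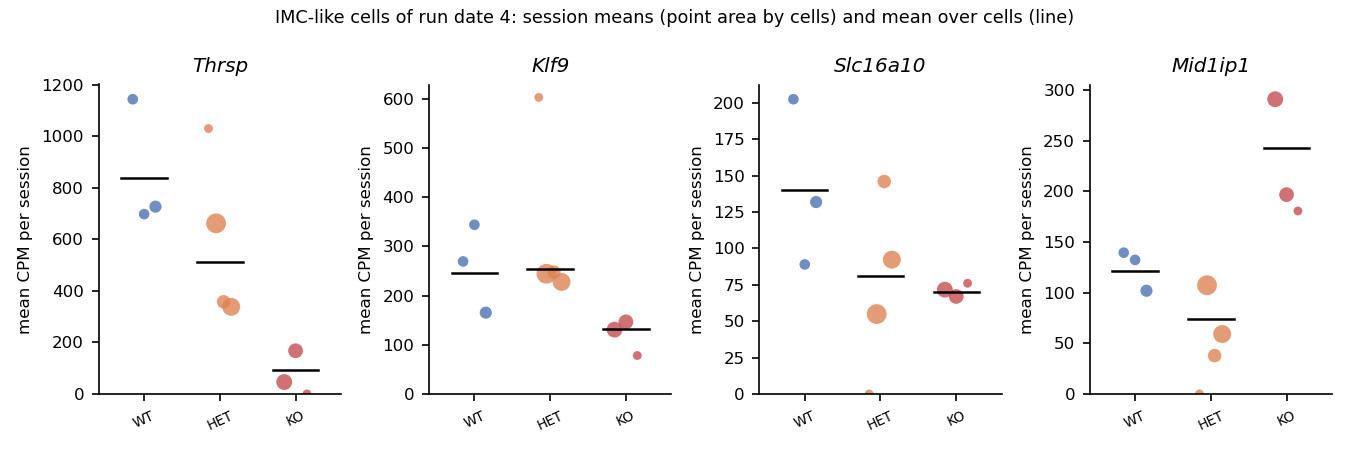
Session means (points, area by number of cells) and means over cells (lines) of Thrsp, Klf9, Slc16a10 and the Thrsp relative Mid1ip1 in IMC-like cells of run date 4, in CPM per genotype. KO sessions of Thrsp (0 to 167.4 CPM) lie below all sessions of both other genotypes, and those of Mid1ip1 lie above them.

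In HET IMC-like cells only Slc16a10 was lower (1 of 5 members), where 17.1% of the 8751 genes examined were lower, and 0 of 5 were higher, where 9.58% of genes were. The median log2 ratio was -0.42 over the 5 members and -0.10 over all genes. The log2 ratio was -1.22 for Slc16a10, -0.73 for Thrsp, -0.42 for Klf9, -0.07 for Thra and 0.16 for Hr. Within run date 4, which holds all HET cells, that of Slc16a10 was -0.77 and that of Thrsp -0.71, both under 2-fold with overlapping sessions. HET cells were also sequenced more deeply (median 2443458 counts against 1334292 in WT IMC-like cells), and the part of depth was not tested. With size-factor scaling, which moved the median of all genes by 0.58 on the log2 scale, Thrsp was higher in HET cells (1.35), so no direction can be given for it.

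Pendrin cells are those in which Slc26a4 is normally expressed. In KO pendrin cells, 3 of 7 members (Thrsp, Thra and Klf9) were lower, where 19.6% of the 9594 genes examined were lower, and 2 (Dio2 and Slc16a10) were higher, where 14.4% of genes were. Dio2 had no count in WT pendrin cells and averaged 24.5 CPM in KO cells, from 2 cells of 1 session. It passed the limit of 10 CPM only through these cells, so its direction was fixed and nothing is read from it. The median log2 ratio was 0.03 over the 7 members and -0.10 over all genes. Size-factor scaling moved that median of all genes by -0.71 on the log2 scale, and relative to it Thrb went from 0.80 to -0.84. The mix of cells also differed between genotypes, with 23 SC-like and 16 RC-like cells in WT, 2 and 6 in HET, and 8 and 14 in KO mice. The 8 spindle cell markers summed to a mean of 24017 CPM in WT, 13888 CPM in HET and 5506 CPM in KO pendrin cells, and the 6 root cell markers to 6486, 15632 and 13599 CPM. All 8 SC-like KO cells came from run date 2, so that within run date 4 RC-like KO cells stand against WT cells of both types. Run date 2 held only 3 WT pendrin cells against 15 KO cells, and run date 4 held 8 and 7. The part of this mix in the pooled values was not tested, and ratios within each type are given beside them. Depth also differed within the types. SC-like cells held a median of 1820555 counts in WT and 524052 in KO mice, and RC-like cells 891474 and 1769606. The part of depth was not tested.

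Thra averaged 92.99 CPM in WT, 119.4 in HET and 26.7 CPM in KO pendrin cells. Sessions of WT cells ran from 0 to 240.6 CPM with a median of 49.5, and those of KO cells from 0 to 46.1 CPM with a median of 1.27. The log2 ratio of KO to WT cells was -1.76 over all cells, -0.46 within run date 2 and -1.37 within run date 4, where sessions did not overlap. Thra was thus more than 2-fold lower in the second of these run dates and not in the first, which held only 3 WT cells. The ratio was -1.81 in RC-like and -1.73 in SC-like cells. Of the 8 SC-like KO cells only 2 had a count, and their mean of 26.8 CPM came almost wholly from a cell at 210.9 CPM. The ratio in SC-like cells therefore rests on very few cells.

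Thrsp averaged 58.5 CPM in WT and 2.28 CPM in KO pendrin cells (log2 ratio -4.18), but the medians of sessions were 1.35 and 1.94 CPM. The WT mean rested on sessions at up to 365 CPM, and the highest KO session was at 16.5 CPM. Within run date 2 the ratio was -0.56 and within run date 4 it was -4.27, and it was -4.85 in RC-like and -3.41 in SC-like cells. In HET pendrin cells Thrsp averaged 124.9 CPM and was the only member counted as higher (1 of 5, where 19% of the 9546 genes examined were higher), and 0 were lower, where 24.3% of genes were. A single cell at P26, at 855 CPM, gave this level, and without it the log2 ratio to WT cells was -1.46 instead of 1.08. The median log2 ratio in HET pendrin cells was 0.46 over the 5 members and -0.05 over all genes.

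Klf9 averaged 99.6 CPM in WT, 58.1 in HET and 42.9 CPM in KO pendrin cells (log2 ratio of KO to WT -1.20), and its sessions overlapped in run dates 2 and 4. In RC-like cells the ratio was -2.05 and in SC-like cells -0.21. Slc16a10 averaged 28.9, 51.9 and 73.6 CPM. Its higher mean in KO cells came from a single RC-like cell at 1131 CPM, and without that session the log2 ratio was -0.30 instead of 1.32. Thrb averaged 62.5, 86.3 and 101.8 CPM with overlapping sessions, but the order of genotypes differed between the types. In RC-like cells Thrb averaged 149.4 CPM in WT, 114.97 in HET and 51.93 CPM in KO mice, and in SC-like cells 1.95, 0.415 and 189.1 CPM, the last from 3 of 8 cells. Hr averaged 10.3, 4.45 and 10.5 CPM.

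The transcripts of Thra were compared because its 2 main forms differ in hormone binding. In WT IMC-like cells the hormone-binding TRα1 transcript made up 27.9% of Thra TPM. Thra-201 (TRα2) and the incomplete Thra-203 together made up 55.9%, and shorter transcripts 16.2%. The last coding stretch of Thra-203 starts at base 98768274, inside that of Thra-201, which starts at 98768157. Thra-203 thus lacks the first bases particular to TRα2 that are printed above. TRα1 averaged 8.22 TPM in WT, 7.57 in HET and 6.98 TPM in KO IMC-like cells, and Thra-203 averaged 7.64, 14.3 and 21.2 TPM. The share of the TRα2 exon was 58.5% in HET and 73.9% in KO cells, and most cells with at least 10 Thra counts held mostly these transcripts (11 of 16, 10 of 12 and 16 of 17 cells). The last exon of Thra lies opposite Nr1d1, a circadian repressor gene on the minus strand, with 10.7% of Thra-201 and 10.5% of Thra-203 inside Nr1d1 exons. The library kit does not mark strand, so reads of Nr1d1 cannot be told apart from those of these Thra forms there, and Nr1d1 averaged 125.6, 25.97 and 265.1 CPM in the 3 genotypes.

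In pendrin cells TRα1 averaged 12.98 TPM in WT, 21.2 in HET and 3.62 TPM in KO cells. Thra-201 averaged 16.9, 46.5 and 7.64 TPM, so both forms had the lowest mean in KO cells. Thrb was read almost wholly as the widely expressed TRβ1 form: its transcripts Thrb-201 and Thrb-203 code for the same 461 amino acids, and Thrb-202, which codes for TRβ2, had a count in 0 cells.

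**Figure D4:**
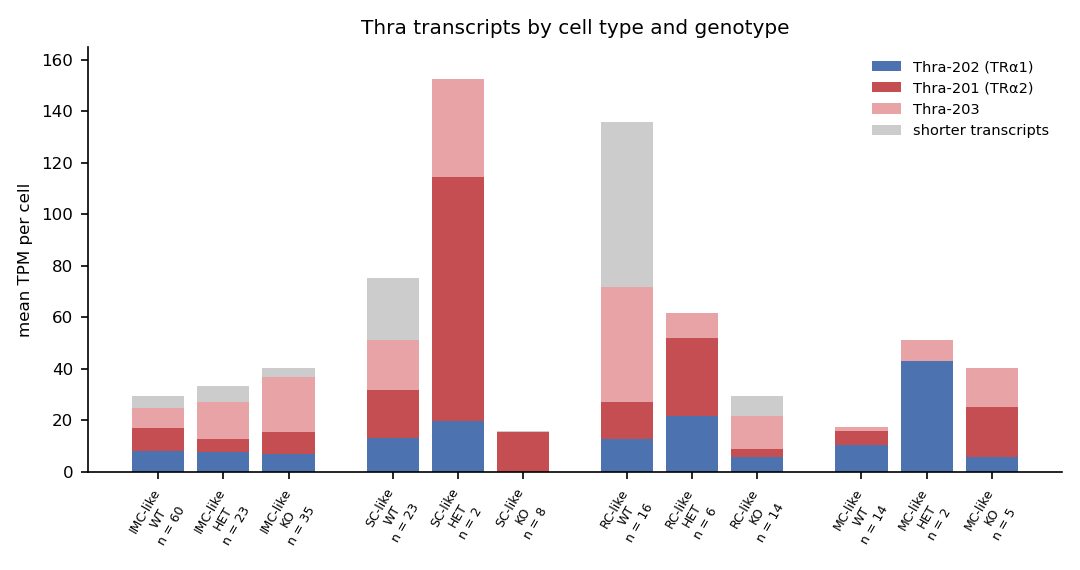
Mean TPM per cell of the Thra transcripts, stacked, by cell type and genotype: Thra-202 (TRα1), Thra-201 (TRα2), Thra-203 and the shorter transcripts. In IMC-like cells Thra-202 is at 6.98 to 8.22 TPM in every genotype, and Thra-203 at 7.64 TPM in WT and 21.2 TPM in KO cells. Thra-202 had a count in only 10 of 60 WT, 7 of 23 HET and 7 of 35 KO IMC-like cells.

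The other 52 listed genes of the pathway were set beside the members. Of the 31 past the limit of 10 CPM in IMC-like cells, 3 were lower and 10 higher in KO than in WT cells, with a median log2 ratio of 0.11, where 15.7% of all genes examined were lower and 10.2% higher. Of those that were higher, Slc7a8, Rxrg and Scd1 averaged only 5.72, 7.25 and 6.03 CPM in WT cells. They passed the limit only through KO cells, so their direction was fixed. Among transport and binding genes, the heavy chain Slc3a2 averaged 644 CPM and the light chain Slc7a5, which carry thyroid hormones as well as amino acids, 213.3 CPM in WT IMC-like cells. Of the 3 genes of this list past the limit, the light chain Slc7a8 was higher in KO cells (5.72 against 27.2 CPM). None of the 8 genes of hormone synthesis in the thyroid gland passed 10 CPM.

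Of the 3 retinoid X receptors, which pair with thyroid hormone receptors on DNA, Rxra and Rxrg were higher in KO IMC-like cells (log2 ratios 1.35 and 1.22), but Rxra was lower within run date 4 (-2.82). Of the 5 listed corepressors, 0 differed at least 2-fold. Of the 7 coactivators 2 were higher. Ncoa3 averaged 213.8 CPM in WT and 568 CPM in KO cells (log2 ratio 1.40), with no overlap of sessions within run date 4. Ppargc1a, a regulator of mitochondrial genes, averaged 134.7 and 274.3 CPM.

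Of the 9 other hormone targets past the limit, 3 were lower and 3 higher in KO IMC-like cells, with a median log2 ratio of 0.11. Ucp2, a mitochondrial carrier, averaged 861 CPM in WT, 386 in HET and 152.4 CPM in KO cells (log2 ratio -2.49 in KO cells), and its sessions did not overlap between these 2 genotypes within run date 2 (-2.75) or within run date 4 (-3.36). Me1 (-1.001) and Mbp (-1.16) were the other genes that were lower, and Mbp was higher within run date 4 (0.62). Fasn, which builds fatty acids, averaged 39.7 CPM in WT and 254.6 CPM in KO cells (log2 ratio 2.65), without overlap of sessions within run date 4 (2.08). Acaca (1.11) and Scd1 (2.42) were also higher, but Acaca differed by 0.05 and 0.21 within the run dates and Scd1 by -0.38 within run date 4.

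Mid1ip1, the closest relative of Thrsp, averaged 61.3 CPM in WT and 169.3 CPM in KO IMC-like cells (log2 ratio 1.45). The ratio was 1.495 within run date 2 and 0.99 within run date 4, where sessions did not overlap. Thrsp and this relative thus had ratios of opposite sign in the same cells.

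**Figure D5:**
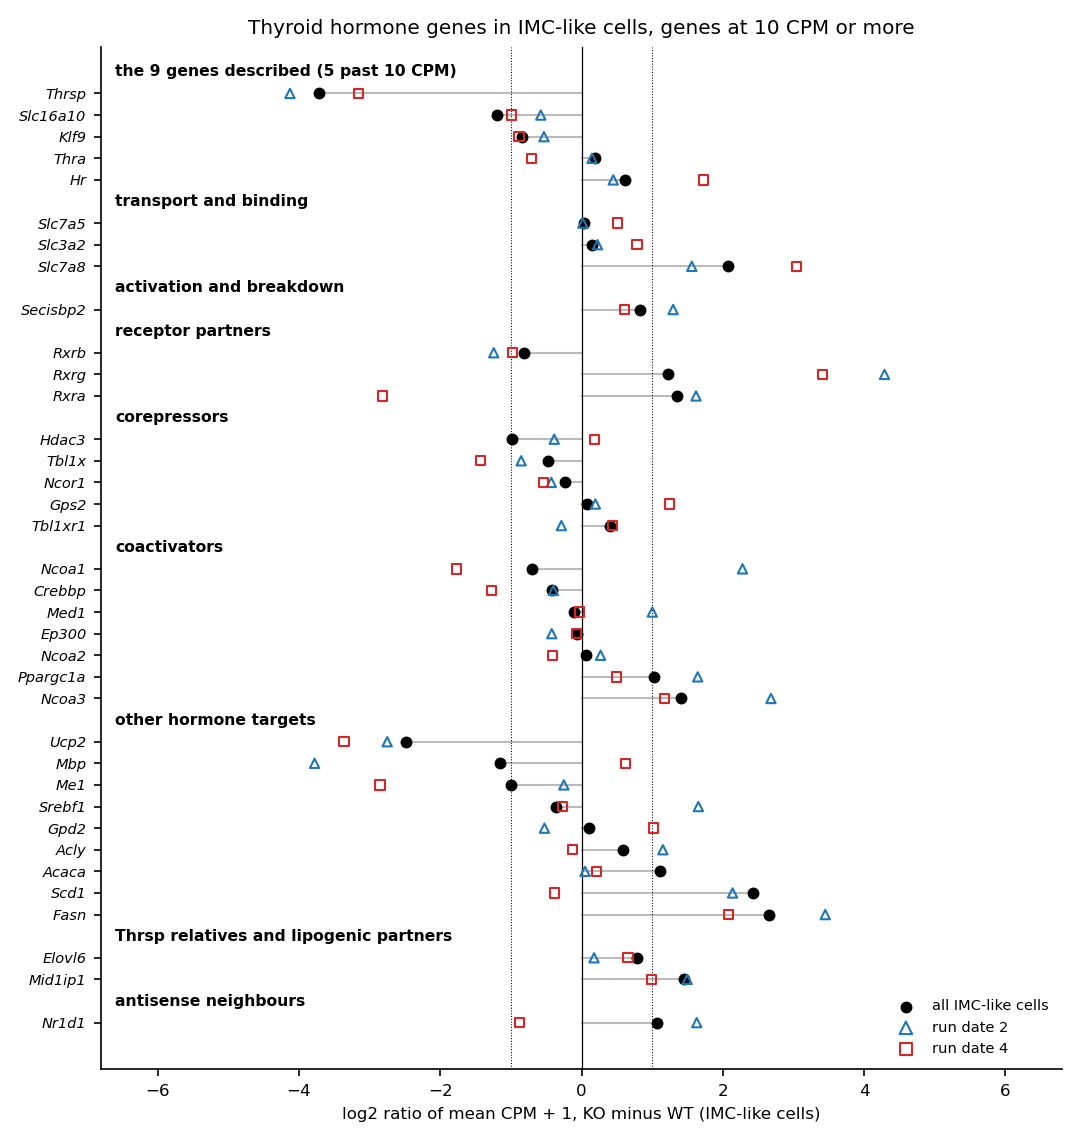
Log2 ratio of mean CPM + 1 in IMC-like cells, KO minus WT, for the members and listed pathway genes at 10 CPM or more, over all cells (filled points) and within run dates 2 (triangles) and 4 (squares). Dotted lines mark a 2-fold difference. Thrsp (-3.71) and Ucp2 (-2.49) lie farthest to the left and Fasn (2.65) farthest to the right.

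In HET IMC-like cells, 5 of the 28 other listed genes past the limit were lower and 3 higher, against 17.1% and 9.58% of all genes. Ncor1 (log2 ratio -2.10), Slc7a5 (-1.84) and Ucp2 (-1.15) were among the lower ones, and Ncoa1 (1.54), Scd1 (1.75) and Elovl6 (1.14) were the higher ones. Scd1 averaged 6.03 CPM in WT cells and passed the limit only through HET cells. In pendrin cells, 4 of 31 were lower and 6 higher in KO cells, where 19.6% and 14.4% of all genes were, and 10 of 31 were lower and 3 higher in HET cells, where 24.3% and 19% of all genes were. Fasn was higher in KO pendrin cells too (171.8 against 557 CPM, log2 ratio 1.69), as were Ncoa3 (1.25) and Ppargc1a (3.10), and Slc7a5 (-4.57) and Slc7a8 (-3.58) were lower. The comparisons with WT cells share those cells, so likeness between the mutants is not read as a result.

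The genes with levels most like each member were sought among 12619 genes over 12 groups of cell type and genotype, by Pearson's r of log2(mean CPM + 1). The groups share run dates and differ in depth, and r is a description. For Thrsp these were Fbxl21 (0.92), Alms1 (0.89), Snx29 (0.89), Adcy9 (0.89) and Glrb (0.88). In WT, HET and KO IMC-like cells Fbxl21 averaged 19.6, 13.5 and 3.12 CPM and Alms1 26.2, 12.8 and 5.48 CPM. Snx29 averaged 31.2, 20.6 and 14.5 CPM and Adcy9 35.9, 17.3 and 28.1 CPM. Glrb, a glycine receptor subunit, averaged 1356, 1152 and 1035 CPM in IMC-like cells of the 3 genotypes, so it shared the cell type of Thrsp and not its 13.1-fold difference. The most similar genes were Rrp7a (0.94) and Gys1 (0.89) for Thra, Fam210b (0.90) and Ubald1 (0.89) for Thrb, Vps8 (0.94) and Tanc1 (0.92) for Klf9, Nat14 and B3gat2 (both 0.99) for Slc16a10, Mphosph9 (0.91) and Ehhadh (0.90) for Hr, and Cfi (0.99) and Pex5l (0.98) for Dio2, which has values in few groups.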

How the data were processed

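Every labelled cell was analysed, with genotype and age taken from the labels. Per the paper's methods, the authors pseudo-aligned reads to the mm10 (GRCm38) transcriptome with kallisto, whose version is not given in the sources used here. The deposited gene counts are estimated counts per gene and cell, and the deposited per-cell files hold estimated counts and TPM per transcript. Of the columns of gene counts, 17 match no label and were not used. The members and lists were chosen with earlier results of these data known, and 2 listed genes are not reported here.

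Estimated counts were scaled to CPM, and TPM were summed per gene. Cells were clustered in Seurat 5.3.0 (R 4.3.3) on 2000 variable genes, from which members, listed genes and genes of the study's claims were left out (1887 remained), with 10 principal components at a resolution of 0.8. Naming a cluster required that 80% of its cells or more had their top score for 1 fixed marker list, with at least 3 of its markers detected. The 2 highest scores of 36 cells lay within 0.25 of each other. Differences from the study's cell types may come from these rebuilt names. Cells were picked singly, so no doublet caller was run, and no cell was filtered out.

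Each comparison of genotypes is a log2 ratio of means after 1 CPM was added to each mean (the pseudocount), which understates the change of low genes. Run dates and sessions were read from the names of the deposited profiles. A floor is 3 counts over a group. Genes named are the members, listed genes at least 2-fold different or at 0, and the 5 (Thrsp) or 2 (other members) most similar genes. The alternatives were other pseudocounts, scalings, limits on level and cell type rules, values within run dates, and each session left out. The ratio was tested on simulated data. Python 3.11.15, numpy 2.4.6, pandas 2.3.3, scipy 1.17.1 and matplotlib 3.10.9 were used. The 20 cells with under 100000 counts are the least certain.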

Additional observations from a re-analysis of the deposited data

Results flagged for a closer look

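In 27 combinations of member, cell group and genotype with 4 to 10 sessions, the session farthest from the others was compared with Dixon's limit. Normally distributed values pass it in about 1 of 20 groups. Session means of few cells with many zeros are not of that kind, so the number passed is not read as an excess. The limit was passed by 10 sessions, each the highest of its group. In IMC-like cells these were Thrsp in KO (632 CPM, 1 cell), Klf9 in HET (603 CPM, 1 cell) and Hr in KO cells (127.2 CPM, 4 cells). In pendrin cells they were Thrsp (855 CPM, 1 cell) and Slc16a10 (102.99 CPM, 4 cells) in HET cells, and Slc16a10 (1131 CPM, 1 cell), Dio2 (67.3 CPM, 8 cells) and Klf9 (102.4 CPM, 8 cells) in KO cells. In WT MC-like cells they were Thrsp (332 CPM, 1 cell) and Thrb (349 CPM, 1 cell).

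For 2 transporters there were log2 ratios to WT cells past 2-fold in opposite directions in IMC-like and pendrin cells, and these differences were not tested. They were Slc16a10 (-1.19 in IMC-like and 1.32 in pendrin cells) and Slc7a8 (2.07 and -3.58), both in KO cells.

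Cells of the unnamed clusters, which entered no comparison, also held members. Slc16a10 averaged 289.3 CPM in the 48 WT cells of the cluster of 56, which is led by Slc4a1, Fcnb, Mpo and Camp. Dio2 averaged 25.7 CPM in the 3 HET cells of that cluster, all of it from a cell at 77.02 CPM. Crym was at 78.9 CPM in an unnamed WT cell and at 2.23 CPM in an SC-like cell.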

How the results depend on the processing

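Thrsp was lower in KO than in WT IMC-like cells at least 2-fold under every alternative, with log2 ratios between -6.20 and -3.16 (-2.45 against HET cells within run date 4). Among the named cell types in WT mice, 3 members were highest in IMC-like cells under all 9 alternatives. Among single member ratios under alternatives other than leaving out a session, 11 moved by more than the spread of sessions and 1 reversed. A ratio was counted as reversed only if its main log2 value was at least 1 in size, so sign changes of smaller ratios are not in that count. Several smaller ratios did change sign. Thrsp in HET IMC-like cells ran from -1.50 to 1.35, Klf9 there from -0.62 to 0.66, and Thrb in KO pendrin cells from -1.66 to 6.01. In KO IMC-like cells 1 member instead of 2 was lower with the mean of logs per cell, within run date 2 or 4, and against HET cells of run date 4 (an alternative chosen after seeing the data, as were the 2 IMC-like clusters taken alone), 3 were lower with no minimum level, with a minimum of 1 CPM and in the smaller cluster, and 1 instead of 0 was higher with sessions weighted equally. In HET IMC-like cells 2 instead of 1 were lower with the mean of logs, with no minimum level and with a minimum of 1 CPM, 0 within run date 4 and in the smaller cluster, and 3 instead of 0 were higher with size-factor scaling. In KO pendrin cells 1 instead of 3 was lower within run date 2 (where 3 were higher), 2 with the mean of logs and in SC-like cells alone, and 4 with size-factor scaling, within run date 4 and in RC-like cells alone, and 1 instead of 2 was higher with TPM, the mean of logs, size-factor scaling, cell types from marker scores, sessions weighted equally and RC-like cells alone, and 0 within run date 4. In HET pendrin cells 1 instead of 0 was lower with size-factor scaling, no minimum, a minimum of 1 CPM and within run date 4. There 3 instead of 1 were higher with the mean of logs, and 0 with a pseudocount of 10 CPM, size-factor scaling, cells of at least 100000 counts and marker scores. The cause of these changes was not tested.

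With each session left out, the lower and higher counts ran from 1 to 2 and 0 to 1 in KO IMC-like cells (1 lower without the WT P30 session of run date 1), from 1 to 1 and 0 to 0 in HET IMC-like cells, from 2 to 3 and 1 to 3 in KO pendrin cells, and from 0 to 2 and 0 to 2 in HET pendrin cells. The ratio of Slc16a10 in KO pendrin cells ran from -0.30 (without the KO P25 session) to 2.43 and was -0.039 in SC-like cells alone, and that of Thrsp in HET pendrin cells ran from -1.46 (without the HET P26 session) to 1.89. In run date 2, 5 collection numbers held IMC-like cells of both WT and KO mice, and the labels do not say what such a number marks. Deviations of same-numbered sessions correlated at 0.011 to 0.057 over 8153 genes. These values were low, yet 5 of 5 WT and 4 of 5 KO sessions correlated best with their own number. With means over few cells, they do not settle whether such sessions share more than a number. With the collection number as a replicate block (also chosen after seeing the data), 1 member instead of 2 was lower. The mean within-number log2 ratio was -5.02 for Thrsp (SD 2.68, lower in KO in 5 of 5) and 0.63 for Klf9 (SD 1.77, lower in 2 of 5). The pendrin comparisons rest on 8 to 39 cells a genotype, and within run date 2 on only 3 WT cells. A group of 1 or few sessions shows nothing of the spread between mice.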
